A study of Danio rerio with 15 samples.

Results

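The long arm of zebrafish chromosome 4 was examined as one region, in the radial glia and neural progenitors of larval and adult brains. Its members were the transcripts on chromosome 4 that start at 28000000 or beyond in the Zv9 assembly. They numbered 1780 of the 30279 transcripts in the count tables, or 5.88%. The same chromosome held 670 transcripts below that position, 27816 lay on the other 24 chromosomes and 13 on the mitochondrial genome. No measured value entered the choice of the members.

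The long arm of zebrafish chromosome 4 is known as a heterochromatic arm that replicates late. It is rich in repeats and in genes of small nuclear and ribosomal 5S RNA, and it carries large arrays of related zinc-finger and NLR (NOD-like receptor) genes with few single-copy genes. In some strains it also carries the sex-linked region. The rows of the tables carry Ensembl transcript IDs and no names. As 0 IDs were found in the gene tables at hand, no member is named here and its role is left out. For the same reason notch3 itself and the markers of radial glia could not be looked up in the libraries.

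The larval libraries came from eGFP-positive radial glia sorted from heads at 7 days, with 3 libraries of notch3-/- mutants (notch3fh332) and 3 of their notch3+/+ siblings, all in the gfap:egfp background. The adult libraries came from the telencephalon of 3-month-old wild-type her4:drfp;mcm5:egfp fish. RFP-positive cells were quiescent radial glia (qRGs, 3 libraries), double-positive cells activated radial glia (aRGs, 3 libraries) and GFP-positive cells activated neural progenitors (aNPs, 3 libraries). Each library pooled 15 larval heads or 20 telencephali, and the reporters mark all cells that carry the GFP or RFP protein, which can outlast the activity of the promoter. The adult table names its columns quiescentNPC, activatedNPC and proliferative. The quiescentNPC columns were taken as qRGs, and the other 6, which could not be divided between aRGs and aNPs, were pooled as activated cells.

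Between 17776468 and 37653792 reads were counted per larval library, and between 19555038 and 66966289 per adult library. Of the 6 activated columns, 3 were shallower than every other adult column (activatedNPC 3, proliferative 1 and proliferative 3, with 35905596, 19555038 and 25395275 reads). They are called the 3 shallow columns below, and results that rest on them are also given without them. The 3 deeper activated columns (activatedNPC 1 and 2 and proliferative 2) held 66549115, 66966289 and 59570154 reads. Each was deeper than every qRG library (45607676 to 49601032 reads), so leaving out the shallow columns does not even out depth. One column was closer to columns of another heading than to those of its own. Over 22771 transcripts of the other chromosomes, the log2 levels of proliferative 2 correlated at 0.924 and 0.929 with activatedNPC 1 and 2. With proliferative 1 and 3 they correlated at 0.843 and 0.906. ActivatedNPC 3 correlated at 0.944 and 0.941 with activatedNPC 1 and 2, and at 0.903 and 0.938 with proliferative 1 and 3. Heading and depth thus both differ between these columns. These correlations are across transcripts, which are not independent, and what sets the columns apart was not tested.

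The transcript models of the arm were short and simple. Their median length was 512 bp with 2 exons, against 1777 bp and 7 exons on the rest of chromosome 4 and 1601 bp and 6 exons on the other chromosomes. The median distance from first to last base was 996 bp on the arm and 10711 bp below the boundary. Single-exon models made up 845 of the 1780 (47.5%), against 29 of 670 (4.33%) below the boundary and 2491 of 27816 (8.96%) elsewhere. The arm held 52.2 transcripts per Mb, more than any of the other 24 chromosomes (17.2 to 27.8 per Mb). By contrast, models that share exon bases with another were fewer on the arm (95, or 5.34%) than on the other chromosomes (8.79%).

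Most single-exon models of the arm had one of 2 lengths. Exactly 107 bp was the length of 423 of them, and 81 further single-exon models of that length lay elsewhere in the genome. Another 172 were exactly 164 bp long, with 32 elsewhere. These 595 models made up 33.4% of the arm's transcripts, and they started between positions 29709994 and 56869880. In the larval libraries 147 of the 423 and 100 of the 172 had any read, and none of the 423 reached 10 reads in the 6 libraries together. In the adult libraries 397 and 172 had a read, with medians of 5 and 12 reads over 9 libraries. Without the 3 shallow columns 272 and 140 had a read, with medians of 1 and 2 reads over 6 libraries. Only reads that aligned to a single place were counted, so near-identical copies lose reads by construction. The low counts of these models cannot be told apart from that loss. Per the paper the libraries were also made with an oligo-dT option, and the larval reads were longer than the adult ones. The part of either in these counts was not tested.

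The boundary was sharp in the gene models. The last 2 transcripts below it had 6 and 5 exons, started at 27783658 and 27942159, and averaged 0.639 and 1.54 RPKM (reads per kb of transcript and 1000000 counted reads) in qRGs. The first 2 beyond it were single-exon models of 108 and 82 bp, started at 28000732 and 28000922, and averaged 12.6 and 0.0837 on the same scale.

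Fewer transcripts of the arm were detected than elsewhere, and at lower levels. At least 1 read in any larval library was found for 1270 of 1780 (71.3%), against 98.1% below the boundary and 96.0% on the other chromosomes. In the adult libraries 1710 (96.1%) had a read, against 99.1% and 98.9%. A read in both tables was found for 1265 of the arm's transcripts, in the adult table alone for 445, in the larval table alone for 5 and in neither for 65. The tables differ in libraries (6 larval, 9 adult) and in counted reads (167704289 and 417708844). Larval reads were also longer than adult reads, per the paper. These counts therefore do not compare the ages. A count of 0 allows up to 3 counts, that is 0.0179 counts per 1000000 counted reads (CPM) over the larval libraries and 0.00718 over the adult ones. A level of at least 1 CPM in 3 or more libraries was reached by 286 (16.1%) in larvae and 718 (40.3%) in adults, against 65.5% and 85.8% on the other chromosomes. The adult count fell to 388 (21.8%) without the 3 shallow columns, and to 64.6% on the other chromosomes. Taken singly, the 3 shallow columns had 736, 868 and 801 of the arm's transcripts at 1 CPM or more, and the other 6 adult libraries 298 to 473. The rise was not limited to the arm. On the other chromosomes the same columns had 23930, 25224 and 24480 transcripts at that level, and the other 6 libraries 16106 to 19640.

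The lower level was also found within a class of exon number. Among models of 6 or more exons, the median wild-type larval level was 0.124 RPKM on the arm (271 transcripts), 4.13 below the boundary (396) and 2.69 on the other chromosomes (15331). In qRGs the corresponding medians were 0.388, 4.36 and 3.00. At least 1 CPM in 3 or more larval libraries was reached by 25.8% of these multi-exon models on the arm and by 81.5% on the other chromosomes. Related genes of several exons can also lose reads that align to more than a single place. The lower level of these models cannot be told apart from that loss. The arm's single-exon models were detected least, with 44.9% holding a read in any larval library against 76.9% of single-exon models on the other chromosomes.

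The arm was not uniform along its length. In the 30 windows of 1 Mb nearest the boundary, 1623 transcripts started and 51.4% had a single exon. There 12.3% reached 1 CPM in 3 or more larval libraries and 35.6% in adult ones. In the last 5 windows, from position 58027430, 157 transcripts started and 6.37% had a single exon. There 54.8% reached that level in larvae and 89.8% in adults, against 72.4% and 89.6% below the boundary. Without the 3 shallow columns the adult percentages were 17.9% in the first 30 windows, 61.8% in the last 5 and 69.6% below the boundary. These last windows had been set off from the rest after their values were seen.

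**Figure D1:**
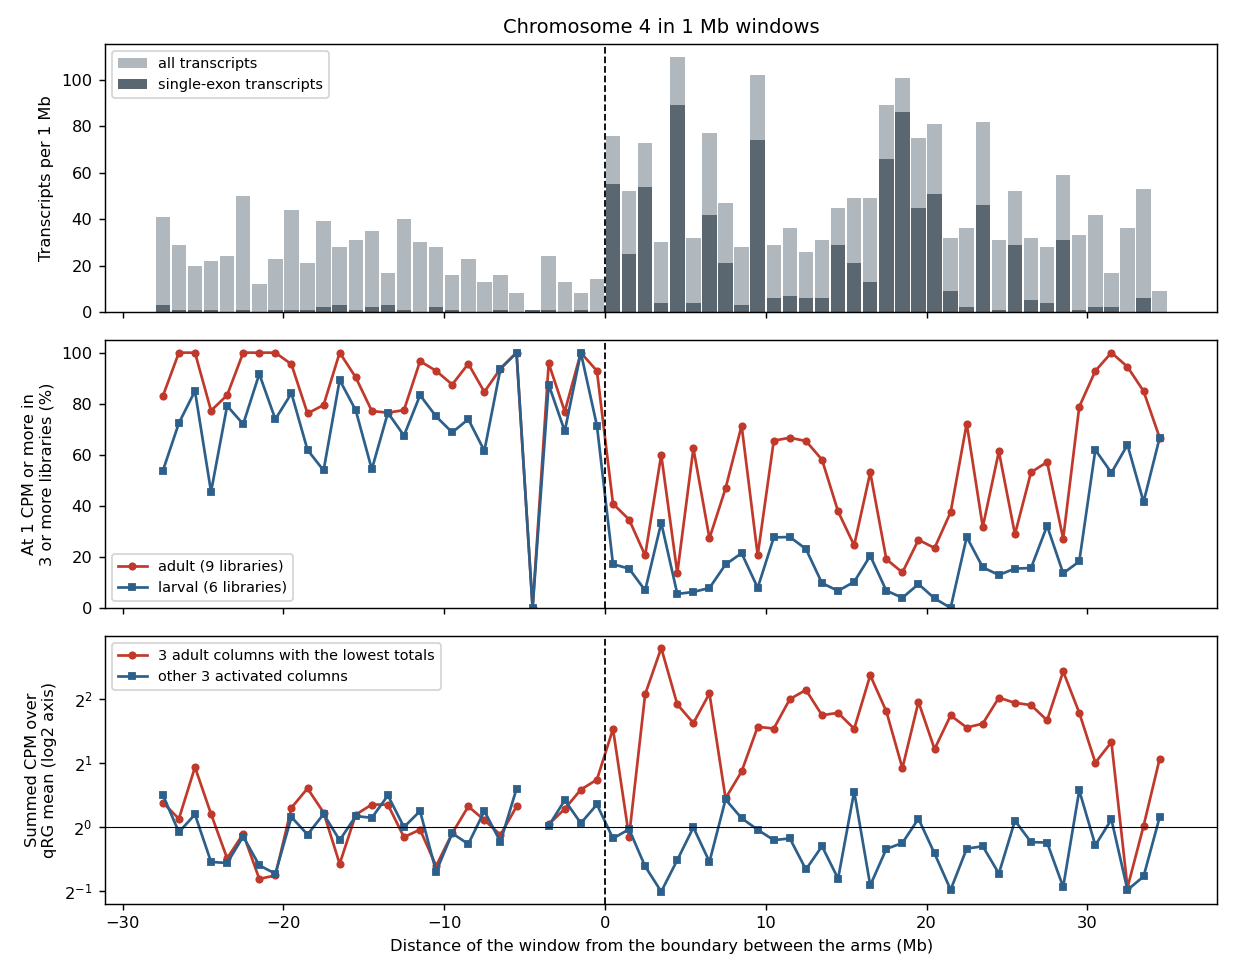
Chromosome 4 in windows of 1 Mb, by distance from the boundary between the arms (dashed line, negative distances below it). The top panel counts transcripts, the middle panel gives the percentage at 1 CPM or more in 3 or more libraries, and the bottom panel gives, on a log2 axis, the mean summed CPM of the 3 shallow columns and of the other 3 activated columns over the qRG mean. Detection falls at the boundary and rises again in the last 5 windows, in larvae to less than below the boundary. The 3 shallow columns lie above the qRG mean in 29 of the first 30 windows of the long arm.

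The arm took a small part of the counted reads, and that part varied more than for any other chromosome in the adult table. In larval wild types 0.194%, 0.207% and 0.272% of the reads of replicates 1, 2 and 3 fell on it, and in notch3-/- mutants 0.170%, 0.245% and 0.270%. Replicate 3, the shallowest, was highest in both genotypes, and the genotypes overlapped. The mean was 0.224% ± 0.0419 (SD, n = 3) in wild types and 0.228% ± 0.0523 (SD, n = 3) in mutants. Mutants were higher in 1 of 3 pairs, with a mean difference of 0.00407 percentage points (two-sided exact permutation of the pairs, p = 1, adjusted p = 1 over 4 tests of shares, where 3 pairs cannot go below 0.25). The larval library with the fewest reads on the arm, mutant replicate 3 with 47993, had a 95% Wilson interval of 0.268% to 0.272%. This interval covers counting error only. It takes counted reads as independent and is too narrow where mates were counted as 2 reads.

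In the adult libraries the qRGs lay close together, at 0.502%, 0.511% and 0.537% (mean 0.516% ± 0.0181, SD, n = 3). The activated columns fell on both sides of them. ActivatedNPC 1 and 2 had 0.401% and 0.371%, and proliferative 2 had 0.366%, all below every qRG library. The 3 shallow columns had 1.03% (activatedNPC 3), 1.71% (proliferative 1) and 1.24% (proliferative 3), all above every qRG library. The activated mean was 0.853% ± 0.564 (SD, n = 6), and the difference, qRG minus activated, of -0.336 percentage points was within the spread (two-sided exact permutation test, p = 0.476, adjusted p = 0.635 over the same 4 tests). Without the 3 shallow columns the activated mean was 0.380%, below the qRG mean. The share thus fell as depth rose, from the 3 shallow columns through the qRGs to the 3 deeper columns. The part of depth in this order was not tested.

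The rest of chromosome 4 stayed within 2.11% and 2.38% in all 9 adult libraries, and between 2.13% and 2.34% in larvae. Its larval share was higher in mutants in all 3 pairs, by 0.0490, 0.0575 and 0.0639 percentage points (mean 0.0568, two-sided exact permutation of the pairs, p = 0.25, the smallest that 3 pairs allow, adjusted p = 0.635). In adults its difference, qRG minus activated, was 0.0622 percentage points (two-sided exact permutation test, p = 0.333, adjusted p = 0.635). The highest adult share of the long arm was 4.68 times its lowest, the largest ratio among 27 units (the long arm, the rest of chromosome 4, 24 chromosomes and the mitochondrial genome). The next was chromosome 14 with 1.505. In larvae the ratio of the arm was 1.60, second to the mitochondrial genome with 1.65.

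**Figure D2:**
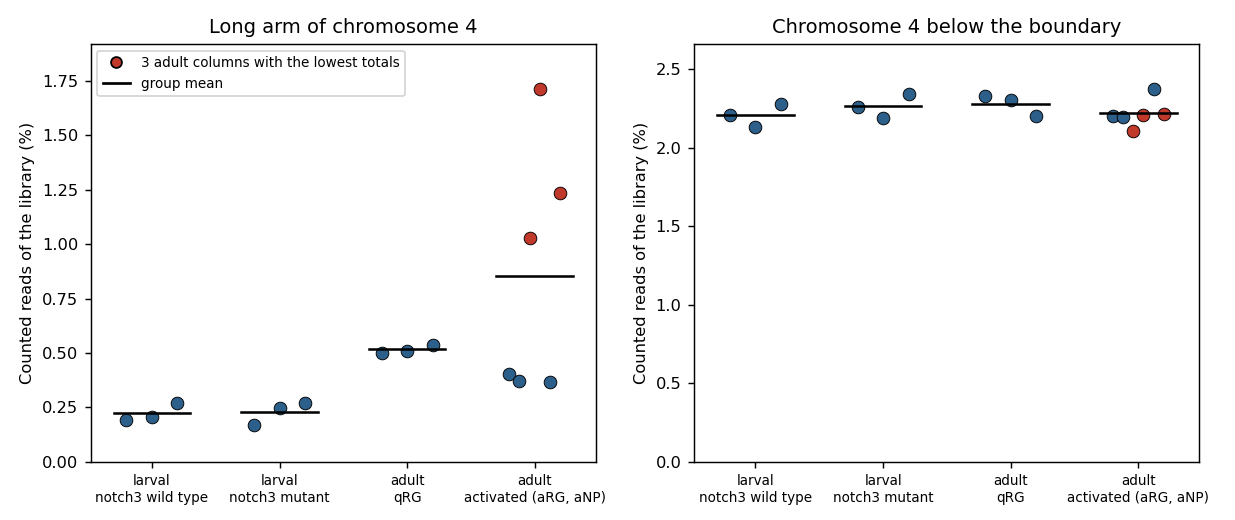
Percentage of each library's counted reads on the long arm (left) and on the rest of chromosome 4 (right). Each point is a library, horizontal lines are group means and red marks the 3 shallow columns. On the long arm the 3 shallow columns sit between 1.03% and 1.71% and every other adult library between 0.366% and 0.537%, while on the rest of the chromosome all adult libraries sit between 2.11% and 2.38%.

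In summed CPM this spread was widest among models of 1 or 2 exons, and models of 3 to 5 exons showed it too. The arm's single-exon models summed to between 755 and 922 CPM in qRGs and to between 517 and 810 CPM in the 3 deeper activated columns. They summed to 2638, 5142 and 3649 CPM in activatedNPC 3, proliferative 1 and proliferative 3. Much of this single-exon sum came from 2 models described below, ENSDART00000122738 and the one from 56733927, so it does not describe the class as a whole. The arm's 2-exon models summed to between 1150 and 1496 CPM in qRGs and to between 997 and 1285 CPM in the 3 deeper activated columns. In the 3 shallow columns they summed to 3505, 6158 and 4291 CPM. For models of 3 to 5 exons the sums were 1079 to 1244 CPM in qRGs and 691 to 984 CPM in the 3 deeper activated columns. They were 2301, 3576 and 2676 CPM in the 3 shallow columns. The arm's models of 6 or more exons summed to between 1705 and 2035 CPM in qRGs and to 1832, 2263 and 1751 CPM in the same 3 shallow columns. The 3 deeper activated columns lay below every qRG library, at 1577 and 1049 CPM in activatedNPC 1 and 2 and at 878 CPM in proliferative 2. The sum over single-exon models of the other chromosomes showed no such spread, at 25831 to 32248 CPM over all 9 adult libraries. Their median level did differ between the groups, so this sum does not describe the typical model there. It was 1.645 RPKM in the activated columns and 0.5003 RPKM in qRGs. For the arm's single-exon models the corresponding medians were 0.282 and 0.0628 RPKM, so the median was higher in the activated columns in both regions.

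Part of this pattern was shared by weakly expressed transcripts everywhere. Among transcripts with a mean of 0.2 to 1 CPM in qRGs, the summed level in the 3 shallow columns was, from lowest to highest, 3.09, 4.03 and 6.004 times the qRG mean on the arm (407 transcripts) and 4.08, 5.56 and 8.41 times on the other chromosomes (5541). Between 1 and 5 CPM the corresponding ratios were 2.47 to 4.20 and 2.60 to 4.84. Above 5 CPM the arm stood higher. Between 5 and 20 CPM the ratios were 2.30 to 3.44 on the arm (81 transcripts) and 1.59 to 2.07 elsewhere (5233). Above 20 CPM they were 1.74 to 2.91 on the arm (30 transcripts) and 0.823 to 0.924 elsewhere (6922). Those 6922 hold most of the counted reads, so on this scale their summed ratio cannot rise far above 1. On the rest of chromosome 4 the ratios were 0.792 to 0.858 (187 transcripts). Levels were not matched within this open class.

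Counted by transcript, all 3 shallow columns exceeded every qRG library for 64 of the arm's 81 transcripts at 5 to 20 CPM (79.0%), against 48.3% on the other chromosomes. Above 20 CPM this held for 14 of 30 (46.7%), against 19.2%. The reverse, all 3 columns below every qRG library, held for 6 of the 30 (20.0%), against 19.3% on the other chromosomes. These sums, ratios and counts are on CPM of library totals. The TMM scaling factors were 1.44, 1.97 and 1.64 for activatedNPC 3, proliferative 1 and proliferative 3, and 0.713 to 0.921 for qRGs. Scaling by them would lower the 3 columns against qRGs, on the arm and on the other chromosomes alike. The depth of the 3 columns moves with these values, and its part in them was not tested. Fewer cells of a type and less RNA per cell cannot be told apart in such sorted pools.

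**Figure D3:**
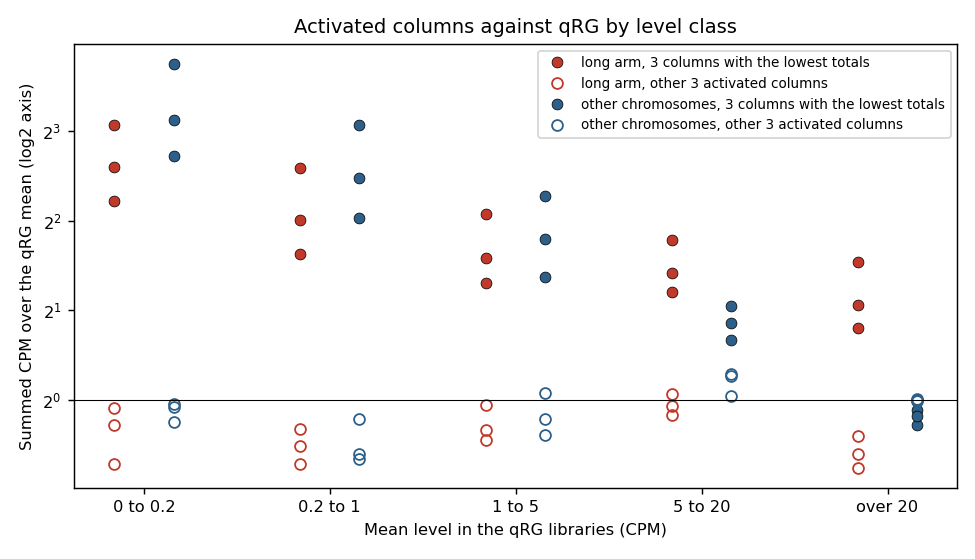
Summed CPM (library totals) of each activated column over the qRG mean (log2 axis), for transcripts grouped by their mean CPM in qRGs, on the long arm (red) and on the other chromosomes (blue). Filled points are the 3 shallow columns and open points the other 3 activated columns. Below 5 CPM each filled red point lies below the blue point of the same column, and above 20 CPM they lie at 1.74 to 2.91 while the blue ones lie at 0.823 to 0.924. Transcripts of the other chromosomes above 20 CPM hold most of the counted reads, so those blue points cannot lie far above 1.

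The larval comparison asked which transcripts depend on notch3. None of the arm's 507 transcripts that passed the filter on low counts changed between notch3-/- mutants and wild types at an adjusted p under 0.05 (edgeR quasi-likelihood test with the replicate as block), where 0.455% of all 23056 tested transcripts did. DESeq2 with the same block also called none of the 244 it tested on the arm, against 1.55% of all. On simulated data the larval edgeR fit recovered 30% of planted log2 changes of 1 and 72% of those of 2. These were planted in transcripts at a log2 CPM of 1 or more. Most changes of the smaller size would thus be missed, and a count of 0 does not show that the arm is unchanged. At an unadjusted p under 0.05 edgeR gave 7 (3 higher and 4 lower in mutants, 1.38%), against 7.88% of all tested transcripts. The values of the genotypes did not overlap for 18 transcripts that were higher in mutants (3.55%, against 3.73% of all) and for 12 that were lower (2.37%, against 3.94%). Both shares of the arm are thus at or below the background. The median log2 fold change of the 507 was 0.07, against 0.03 below the boundary and 0.00 on the other chromosomes. Fold changes beyond 1 on the log2 scale in either direction were found for 124 of the 507 (24.5%), against 14.0% of all tested transcripts. Among models of 1 or 2 exons the share was 24.5% on the arm and 25.1% on the other chromosomes. Among models of 6 or more exons it was 22.8% and 10.4%. These shares were not matched for the level of the transcripts, and low counts widen fold changes. Leaving out replicate 2 turned the median to -0.11.

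The adult comparison asked which transcripts go with quiescence. Of the arm, 986 transcripts passed the filter and 0 changed between qRGs and the activated columns at an adjusted p under 0.05 (edgeR), where 0.553% of all 27848 tested transcripts did. On simulated data of the same size this adult fit recovered almost none of the planted changes, so that a count of 0 says little about the arm. The simulated columns were drawn without the split between shallow and deeper ones. They gave 1 call in all, against 154 on the real data, so the simulation is no exact measure of the real fit. At an unadjusted p under 0.05 edgeR gave 35 (13 higher and 22 lower in qRGs, 3.55%), against 8.65% of all. DESeq2 called 3 of the 237 it tested on the arm (1.27%), all higher in qRGs, against 2.76% of all. Against the activatedNPC columns alone 8 of 853 were called (6 higher and 2 lower in qRGs, 0.938%), where 5.19% of all tested transcripts were. Against the proliferative columns alone 2 of 914 were called (0.219%), both higher in qRGs, where 2.72% of all were. The groups did not overlap for 8 transcripts higher in qRGs (0.811%, against 3.33% of all) and for 31 lower in qRGs (3.14%, against 1.89% of all).

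The median log2 fold change of the 986 was -0.45, that is lower in qRGs, against -0.22 below the boundary and -0.26 on the other chromosomes. Against the activatedNPC columns alone it was -0.15 (-0.11 on the other chromosomes), and against the proliferative columns alone -0.63 (-0.27). Over all 6 columns it was positive for 220 of the 986 (22.3%), against 36.2% on the other chromosomes. The 3 shallow columns were the 3 highest libraries for 725 of the 986 (73.5%), against 48.7% on the other chromosomes. Without these columns the median turned to 0.35 over 822 transcripts, against -0.02 below the boundary and 0.07 on the other chromosomes. One transcript was then called, lower in qRGs, where 2.37% of all tested transcripts were.

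The sign of the adult median therefore rested on the 3 shallow columns. With them the arm's median lay below that of the other chromosomes, and without them above it. The 3 activated columns that then remain are each deeper than every qRG library, and the part of depth in either median was not tested. For models of 1 or 2 exons and for those of 6 or more, the gap with all 6 columns was smaller. Models of 3 to 5 exons, the rest of the tested ones, were not summarised, so exon number is not shown to account for the gap. With all 6 columns the median for models of 1 or 2 exons was -0.57 on the arm and -0.47 on the other chromosomes. For models of 6 or more exons it was -0.28 and -0.20. Models of 6 or more exons stood further above the other chromosomes than those of 1 or 2 exons once the shallow columns were left out. Without the 3 columns their median was 0.71 on the arm (246 transcripts, 85.8% positive), against 0.02 on the other chromosomes (14708 transcripts, 50.6% positive). Models of 1 or 2 exons did not stand apart in that direction. Their median was 0.41 on the arm (220 transcripts, 61.8% positive) and 0.38 on the other chromosomes (3268 transcripts, 62.7% positive).

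**Figure D4:**
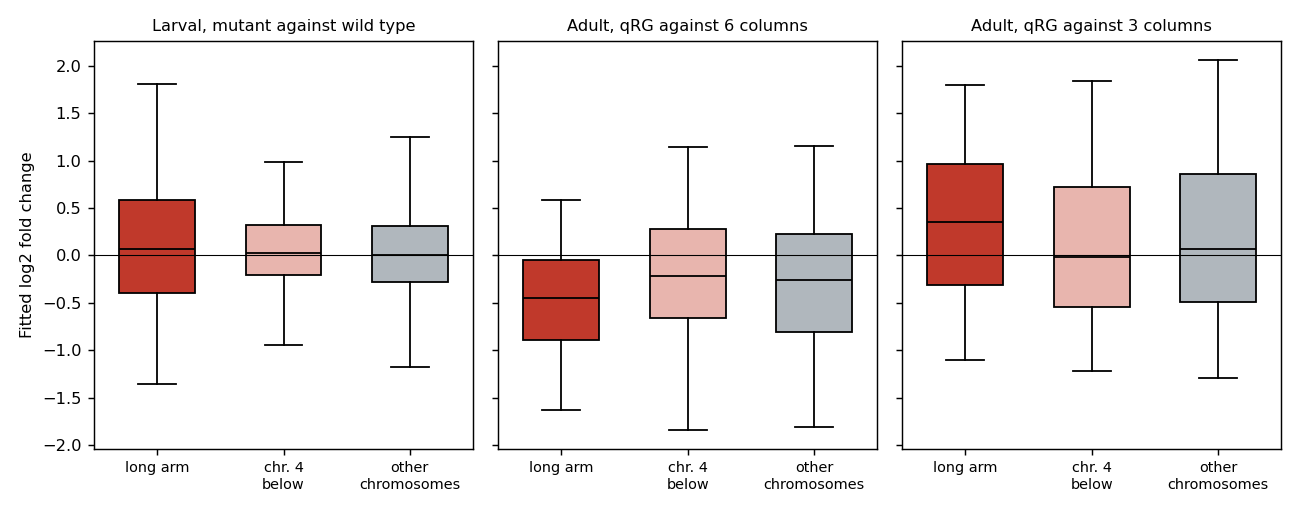
Fitted log2 fold changes of the tested transcripts on the long arm, on the rest of chromosome 4 and on the other chromosomes. Boxes span the quartiles with the median as a line, and whiskers reach the 5th and 95th percentiles. The larval medians lie near 0 in all regions, and the adult median of the long arm lies at -0.45 against all 6 activated columns and at 0.35 against the 3 deeper ones.

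The transcript with the highest level per kb on the arm was ENSDART00000122738 in both tables, a single-exon model of 145 bp on the plus strand (chromosome 4, 31772962 to 31773106). It averaged 478 RPKM in larvae and 2958 in adults. On the scale of TMM-scaled CPM, wild types had 50.3, 19.4 and 132 and mutants 34.8, 57.7 and 108 in replicates 1, 2 and 3. The genotypes overlapped, and the log2 fold change of 0.23 ± 0.31 (SE) was within the spread (edgeR adjusted p = 0.972). In qRGs it had 138, 168 and 151 CPM. The 3 deeper activated columns had 28.5 to 84.7 CPM and the 3 shallow ones 535 to 754, so that the qRGs lay between them. The log2 fold change was -1.23 ± 0.90 (SE; edgeR adjusted p = 0.773), and it was 1.304 without the shallow columns.

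Second in larvae was ENSDART00000018837, with 7 exons and 836 bp on the plus strand (29632402 to 29639074). It took 11.3% of the arm's larval reads. Wild types had 276, 355 and 208 CPM and mutants 206, 236 and 163, so that the mutant was lower in each of the 3 pairs while the groups overlapped. The log2 fold change was -0.45 ± 0.12 (SE; edgeR adjusted p = 0.170). It was called in a single alternative, the fit without the filter on low counts (adjusted p = 0.0438). In adults it had 254, 348 and 401 CPM in qRGs and 40.4 to 563 in the activated columns (median 166), which overlapped (log2 fold change 0.51 ± 0.72, SE; edgeR adjusted p = 0.865).

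Second in adults was ENSDART00000155883, with 7 exons and 1054 bp on the plus strand (60787152 to 60793403). It had 1163, 588 and 510 CPM in qRGs and, from lowest to highest, 60.3, a median of 199.7 and 570 in the activated columns. Only activatedNPC 1 reached into the qRG range. The log2 fold change was 1.76 ± 0.67 (SE; edgeR adjusted p = 0.423), and the 3 shallow columns were here the lowest, not the highest. In larvae it had 0.416 to 2.73 CPM over the 6 libraries, below every adult library, a difference that was not tested. Its larval average was 1.42 RPKM, where the wild-type medians were 0.0895 on the arm and 1.60 on the other chromosomes.

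This transcript belongs to a run of 15 neighbouring models on the plus strand, between 60617632 and 60850574, of which 13 have exactly 7 exons and whose lengths lie between 630 and 1693 bp. The run was picked after its values had been seen, so no test is given. The fitted log2 fold change was positive, higher in qRGs, for 14 of the 15 (median 1.23, range -0.11 to 1.76), and beyond 1 for 9. Over all 27848 tested transcripts the median was -0.27. The smallest adjusted p in the run was 0.177 (edgeR). Without the 3 shallow columns all 15 were positive, between 0.43 and 2.44. Summed over the run as CPM of library totals, qRGs had 1276, 841 and 733. The 3 deeper activated columns had 659, 266 and 323, and the 3 shallow ones 402, 301 and 239. The groups did not overlap in this sum, to which ENSDART00000155883 contributes most. This rests on the scale. The TMM factor was 0.754 for activatedNPC 1 and 0.921 for qRG replicate 3, and with these factors activatedNPC 1 lies within the qRG range. Exon bases were shared with another model for 4 of the 15, and related neighbours can divide reads between them, so the values of single models in the run are uncertain.

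**Figure D5:**
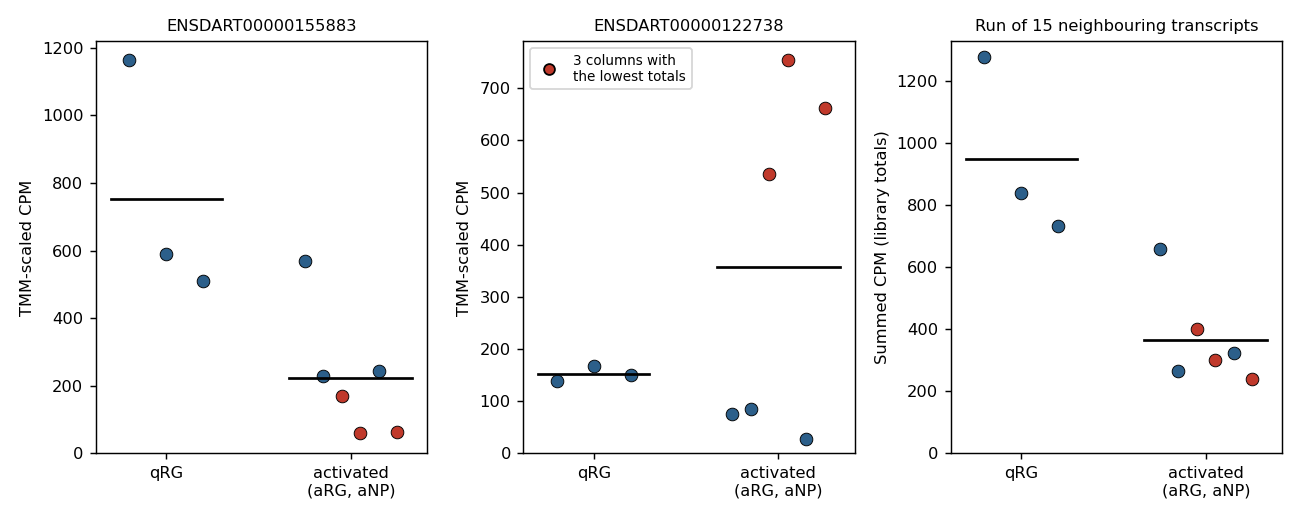
Adult values by library for the 2 transcripts with the highest level per kb (TMM-scaled CPM) and for the run of 15 neighbouring transcripts. The run is given as summed CPM of library totals. Points are libraries, lines are group means and red marks the 3 shallow columns. The shallow columns are the highest for ENSDART00000122738, at 535 to 754 CPM, and lie below every qRG library for ENSDART00000155883 and for the run.

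Further members were singled out after their values were seen. ENSDART00000077207 (5 exons, 750 bp, minus strand, 61874514 to 61880599) had 239, 136 and 109 CPM in qRGs and 14.2 to 92.1 in the activated columns (median 37.1), without overlap. Its log2 fold change was 1.99 ± 0.55 (SE; adjusted p = 0.188 in edgeR and 0.0331 in DESeq2). Its neighbour from 61887203, also of 5 exons, had 360, 175 and 194 CPM in qRGs and 26.5 to 156 in the activated columns, with a log2 fold change of 1.91 ± 0.56 (SE; adjusted p = 0.231 in edgeR and 0.0453 in DESeq2). The third transcript called by DESeq2 starts at 60701150, within the run. In larvae the first of these neighbours had 0.106 to 3.96 CPM and the second 0.323 to 1.25. These levels are below every adult library, a difference that was not tested because the tables were made apart.

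ENSDART00000125943 (3 exons, 1633 bp, minus strand, 53569620 to 53574846) was the one called without the shallow columns. It had 0.0867, 0.325 and 0.307 CPM in qRGs and 1.27 to 2.70 in the activated columns, without overlap and with every activated column higher. The log2 fold change was -3.10 ± 0.77 over all columns (SE; edgeR adjusted p = 0.121) and -3.18 without the 3 shallow ones (adjusted p = 0.0483). Its level is low, so that a few reads decide the qRG values.

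The transcript with the most reads of the arm in adults was a single-exon model of 3858 bp on the minus strand, from 56733927 to 56737784, which took 9.60% of the arm's adult reads. It had 407, 429 and 516 CPM in qRGs, 237 to 281 in the 3 deeper activated columns and 974 to 1357 in the 3 shallow ones. The qRGs thus lay between both sets of activated columns, the order seen for the share of the whole arm. Its log2 fold change of -0.64 ± 0.69 (SE; edgeR adjusted p = 0.833) became 0.79 without the shallow columns (adjusted p = 0.0881). In larvae it had 110, 104 and 245 CPM in wild types and 82.3, 149.5 and 225 in mutants, with replicate 3 highest in both genotypes.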

How the data were processed

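The authors aligned paired reads to Zv9 with TopHat2, excluded reads with several alignments using samtools and deposited raw counts per Ensembl transcript. Per the file headers, counting was done by featureCounts 1.5.0, with neither a pair nor a strand option. Even numbers made up 66.3% to 73.8% of the non-zero counts in larval libraries, where mates were thus often counted as 2 reads, and 50.0% to 54.7% in adult ones, where no such excess shows how mates were counted. Antisense reads cannot be told apart from sense reads. The counts as deposited were analysed.

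Positions and exons came from the tables. Members, lists and alternatives were chosen with earlier results of these data known. Levels are CPM of each library's total, or RPKM, and fitted values and the CPM of named transcripts are TMM-scaled. Fold changes came from edgeR 4.0.16 in R 4.3.3 (quasi-likelihood, filterByExpr, Benjamini-Hochberg over all transcripts, threshold 0.05), with the replicate as block in larvae and without it in adults. The labels number the replicates, and deviations of same-numbered larval libraries correlated at 0.227, 0.264 and 0.317. DESeq2 1.42.0 was an alternative. The fits were tested on simulated data, with changes planted in transcripts at a log2 CPM of 1 or more. The larval fit recovered 30% of planted log2 changes of 1 and 72% of those of 2. The adult fit recovered 0% and 1%, on columns drawn without the split between shallow and deeper ones. The paper reports 3 independent experiments on pooled animals for the larvae and 3 for the adults. The adult cell types were sorted by colour from such pools, so libraries of different adult groups can share a pool. The adult fit and permutation tests took all adult libraries as independent, because the labels do not tie the activated columns to experiments. P-values measure the spread between these libraries.

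Named transcripts were to be up to 10 per direction past the threshold, at a mean log2 CPM of 1 or more and with groups that do not overlap, which none met, and the 2 with the highest level per kb in each table. Others were named after their values were seen, as the text says.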

Additional observations from a re-analysis of the deposited data

Results flagged for a closer look

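In the 6 activated columns, ENSDART00000155883 had 570 CPM in activatedNPC 1, and the gap to the next column was 0.642 of the group's range, above the limit of 0.625 for 6 values (Dixon's test). It was the only one of 10 measures tested that passed, and chance passes about 1 in 20.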

How the results depend on the processing

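Of the larval results, the count of changed transcripts of the long arm was 0 with no replicate block, with DESeq2, with DESeq2's size factors, with a minimum of 10 counts, at a threshold of 0.01, from 30000000 and without each replicate (range 0 to 0), and 1 with no filter except on rows of 0. The median log2 fold change lay between -0.11 and 0.21 without each replicate, and it was 0.02 with no replicate block. For the adult columns a replicate block by the numbers in their headings, which the labels do not tie to the columns, was added after seeing the data. It gave 0 changed transcripts and a median of -0.31, and deviations of same-numbered columns correlated at -0.50 to 0.71, so that the columns share only a number.

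In adults, 3 transcripts changed with DESeq2, 8 against the activatedNPC columns alone, 2 against the proliferative columns alone and 1 without the 3 shallow columns, an alternative added after seeing the data. Without each qRG library or activated column the count lay between 0 and 3, with 3 reached without activatedNPC 1, and the median between -0.59 and -0.27. The median was 0.35 without the 3 shallow columns, -0.15 against the activatedNPC columns and -0.63 against the proliferative columns.

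Detection fell from 1270 to 842 with at least 10 reads and to 286 at 1 CPM in 3 libraries in larvae. In adults it fell from 1710 to 1213 and 718, to 1681 at the depth of the shallowest library, and to 1516 without the 3 shallow columns, which left 388 at 1 CPM in 3 libraries. The qRG share became 0.478% without the most abundant transcript, 0.541% without overlapping exons and 0.473% from 30000000.

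Named transcripts changed direction in 11 fits, each with an adjusted p above 0.05. In larvae ENSDART00000122738 was at -0.0070 with no replicate block and between -0.41 and 0.63 without each replicate. ENSDART00000125943 was at -0.0044 and between -0.35 and 1.60 in the same fits. Without each replicate ENSDART00000155883 lay between -0.55 and 0.23, and the single-exon transcript from 56733927 between -0.27 and 0.20. In adults, without the 3 shallow columns, ENSDART00000122738 was at 1.304, the transcript from 56733927 at 0.79 and ENSDART00000018837 at -0.13. The last was at -0.22 against the activatedNPC columns. The causes were not tested.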
